A study of Caenorhabditis elegans with 45 samples.

Results

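The F1 offspring of the wild Caenorhabditis elegans strain ECA722 and the laboratory strain N2 were compared with both parents by bulk RNA sequencing of whole animals. The comparison rests on 9 of the 45 libraries of the series, 3 of the F1, 3 of ECA722 and 3 of N2, chosen by their labels alone. The F1 carries the genotype label wildtype and the strain label ECA722 x N2 F1. ECA722 is also labelled wildtype. The N2 libraries are labelled strain CB4108, N2 with a fog-2 deletion. All animals were labelled hermaphrodites at day 1 of adulthood. Per the labels' protocols, the F1 came from ECA722 males mated to N2 fog-2 mothers, and the parental animals came from selfing. Mothers without fog-2 make no sperm of their own, F1 broods hold males as well as hermaphrodites, and the protocols state that males were removed. Each strain was grown on at least 3 plates. The labels do not say that the 3 libraries of a group were separate cultures, so the p-values measure only a spread between libraries. That spread was estimated in 1 fit of all 45 libraries of the series, not from the 9 alone.

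An F1 hybrid holds 1 genome of each parent in the same cells. A difference that sits in a gene's own regulatory sequence acts on its own copy, so the hybrid is then often intermediate. A difference in a diffusible regulator acts on both copies and can make the hybrid resemble 1 parent. In a gravid C. elegans adult the germline, with its oocytes and stored embryos, supplies a large part of the messenger RNA, and the intestine makes yolk protein for the oocytes. The cuticle is built of many collagens whose messages come and go with each moult.

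The gene fog-2, which lets the hermaphrodite germline make sperm, had 23.5, 21.5 and 21.9 TMM-scaled CPM in the F1, against 31.7, 33.4 and 34.0 in ECA722 and 36.9, 45.3 and 44.3 in the libraries labelled N2. The libraries labelled with the deletion were the highest, and the 3 groups did not overlap. The labels do not say which part of the gene is deleted, and fog-2 has the close paralogue ftr-1, so the level checks the label only in part. The protocols have N2 parental animals arise by selfing, which needs sperm, and these libraries held 169 to 219 CPM of major sperm protein transcripts. Selfing, sperm transcripts and the high fog-2 level are at odds with the label of a deletion, but the genotype of these animals was not tested. Of the allele-specific fragments of fog-2 in the F1, 244 came from the ECA722 allele and 21 from the N2 allele, an N2 share of 7.92% (4.65% to 9.17% in single libraries). The N2 allele of the F1 came from fog-2 mothers, which may differ at fog-2 from the animals of the libraries labelled N2. This limit holds for every comparison of the F1 with N2. The libraries labelled N2 are called N2 below.

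The libraries held 37.2 to 79.4 M estimated counts in the F1, 67.2 to 70.6 M in ECA722 and 48.3 to 87.3 M in N2. Libraries of 1 group correlated at r = 0.980 to 0.994 across genes on the log2 scale. F1 replicate 1 stood apart from F1 replicates 2 and 3, at r = 0.981 and 0.980, whereas replicates 2 and 3 reached 0.993 between them. All replicate pairs differed by more than sampling noise, with a chi-square of 5.25 to 46.1 per degree of freedom. The largest values were those of N2 replicate 1, at 39.7 and 46.1 from N2 replicates 2 and 3, which had 7.33 between them. F1 replicate 1 had 19.7 and 11.6 from the other F1 libraries. The labelled whole animals were checked with 10 lists of cell type markers, of which intestine, muscle, neuron, oocyte and sperm markers were detected in all 9 libraries. The 7 intestine markers, which include the yolk genes vit-2 and vit-6, summed to 47360 to 51760 TMM-scaled CPM in the F1, 42670 to 45070 in ECA722 and 34350 to 47740 in N2. The 6 body muscle markers summed to 2066 to 2254 CPM in the F1, 2063 to 2836 in ECA722 and 1151 to 2702 in N2, where replicate 1 was the high library.

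Of 19684 genes with a count in the series, 16444 passed the count filter. The F1 differed from ECA722 in 6172 genes (37.5% of those tested, called at an adjusted p under 0.05 in edgeR), 2905 of them higher (17.7%) and 3267 lower (19.9%). The F1 differed from N2 in 5857 genes (35.6%), 2995 of them higher (18.2%) and 2862 lower (17.4%). ECA722 differed from N2 in 6809 genes (41.4%). The median absolute log2 fold change of the called genes was 0.47 for F1 against ECA722, 0.37 for F1 against N2 and 0.51 for ECA722 against N2. At 2-fold or more, 1607, 1230 and 2116 genes remained in these comparisons.

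From the 3 calls each gene was given a mode of inheritance. The F1 was N2-like in 2237 genes (13.6%), which differed between F1 and ECA722 and between the parents but not between F1 and N2. It was ECA722-like in 1973 genes (12% of those tested). It was intermediate, with all 3 calls and the F1 between the parents, in 1146 genes (6.97%). It lay above both parents in 888 genes (5.4%) and below both in 1007 (6.12%). No call was made in 6469 genes (39.3%), and 2724 (16.6%) had another pattern. A call that is missing does not show that 2 groups were equal. Gene totals from an aligner that sees both alleles gave the same mode to 825 of the 888 genes above both, 938 of the 1007 below both, 1002 of the 1146 intermediate, 1977 of the 2237 N2-like and 1732 of the 1973 ECA722-like genes.

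**Figure D1:**
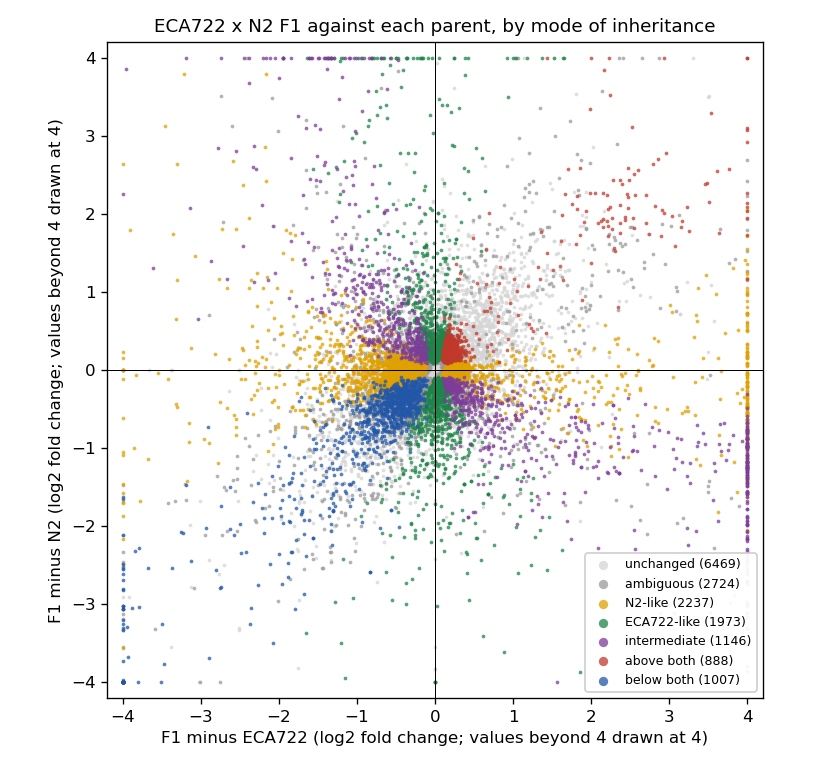
Each point is 1 of the 16444 genes tested, with the log2 fold change of the F1 against ECA722 on the x axis and against N2 on the y axis; colours give the mode and the legend its number of genes. The 888 genes above both parents form a tight cluster near the centre of the upper right quadrant plus a looser group above 1 on both axes, and the 1007 below both spread farther into the lower left.

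The modes differed in size of effect. Genes above both parents were abundant, with a median of 116 TMM-scaled CPM over the 9 libraries against 5.11 for all genes tested, and differed little, by a median log2 of 0.19 from ECA722 and 0.24 from N2. Genes below both had a median of 7.28 CPM and median absolute log2 differences of 0.56 from ECA722 and 0.49 from N2. All 3 F1 libraries lay above all 6 parental libraries in 748 of the 888 genes above both (84.2%), where 7.41% of all genes tested did so. They lay below all 6 in 949 of the 1007 genes below both (94.2%), where 9.65% of all genes did so. The count above both moved with the scaling and the samples fitted, from 515 to 1105 over all alternatives without a fold minimum, while that below both ran from 772 to 1054. Beside the split of 888 above and 1007 below, fitting only the 9 libraries gave 526 and 981, and no count filter gave 528 and 1028. Leaving out F1 replicate 1 gave 531 and 772, F1 replicate 3 gave 515 and 892, and N2 replicate 1 gave 578 and 858.

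Above both parents, the rule for named genes found enzymes of fatty acid breakdown, proteins named for their rise in daf-2 mutants, and genes of unknown role. The gene acs-2 (chromosome V, 15567394 to 15569897; all coordinates are in WBcel235), an acyl-CoA synthetase that feeds mitochondrial fatty acid oxidation, had 41.7, 44.2 and 48.2 TMM-scaled CPM in the F1, against 16.2, 12.4 and 14.4 in ECA722 and 24.3, 18.3 and 18.1 in the libraries labelled N2. Every F1 library was above every parental one. The F1 was higher than ECA722 by a log2 of 1.64 ± 0.13 (SE; adjusted p 1.2e-12) and higher than N2 by 1.15 ± 0.13 (adjusted p 8.3e-09). The acyl-CoA dehydrogenase gene acdh-2 (chromosome II, 5544778 to 5547492), which overlaps ins-13, had 148, 163 and 162 TMM-scaled CPM in the F1, against 90.0, 83.8 and 93.7 in ECA722 and 78.5, 67.9 and 73.2 in the libraries labelled N2. Its log2 difference was 0.83 ± 0.09 from ECA722 and 1.11 ± 0.09 from N2 (adjusted p 7.8e-10 and 9.9e-13). Within the F1 both genes showed more of the ECA722 allele, with 5052 fragments of the ECA722 allele against 2589 of the N2 allele for acs-2 and 5615 fragments of the ECA722 allele against 1258 of the N2 allele for acdh-2.

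The neighbouring genes pud-3 (chromosome V, 2324634 to 2325152) and pud-4 (chromosome V, 2326678 to 2327282) encode proteins up-regulated in daf-2 mutants. The gene pud-3 had 26.7, 39.7 and 35.9 TMM-scaled CPM in the F1, against 0 in every library in ECA722 and 7.51, 9.30 and 7.95 in the libraries labelled N2. The F1 was at least 2430-fold above ECA722 against a floor of 3 counts over that group, and above N2 by a log2 of 2.04 ± 0.17 (adjusted p 1.9e-09). For pud-4 the levels were 8.99, 13.1 and 13.2 CPM in the F1, 0 in every library in ECA722 and 2.62, 3.28 and 3.20 in N2, and the F1 exceeded N2 by 1.95 ± 0.19 (adjusted p 1.1e-08). F1 replicate 1 was the lowest F1 library for both genes. The uncharacterised gene F45D11.14 (chromosome II, 1004616 to 1006475) was also at 0 counts in ECA722, with 71.6, 148 and 129 TMM-scaled CPM in the F1, against 0 in every library in ECA722 and 48.5, 58.7 and 46.9 in the libraries labelled N2, and exceeded N2 by 1.17 ± 0.25 (adjusted p 6.1e-04). Sharing of reads with near-identical neighbours was not tested for these genes.

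Among the other genes named above both parents, C09B8.4 (chromosome X, 6018442 to 6019936) had 35.9, 33.9 and 33.5 TMM-scaled CPM in the F1, against 16.9, 16.9 and 17.4 in ECA722 and 15.1, 15.1 and 15.8 in the libraries labelled N2. Every F1 library was above every parental one, and the log2 differences were 1.01 ± 0.06 from ECA722 and 1.17 ± 0.06 from N2 (adjusted p 4.1e-16 and 2.0e-17). Y69A2AR.12 (chromosome IV, 2568614 to 2572158) had 7.83, 7.496 and 8.61 TMM-scaled CPM in the F1, against 3.20, 3.14 and 2.94 in ECA722 and 2.24, 2.42 and 2.33 in the libraries labelled N2. The RNase H gene rnh-1.3 had 15.3, 13.7 and 13.7 TMM-scaled CPM in the F1, against 9.73, 8.27 and 8.49 in ECA722 and 3.18, 3.38 and 3.93 in the libraries labelled N2, so that the F1 was nearer to ECA722, by 0.69 ± 0.08, than to N2, by 2.02 ± 0.09. The zinc finger regulator hbl-1, a gene of developmental timing, had 8.16, 7.97 and 8.13 TMM-scaled CPM in the F1, against 5.20, 4.72 and 4.96 in ECA722 and 5.15, 4.49 and 4.42 in the libraries labelled N2. The cytochrome P450 gene cyp-35B3 had 2.80, 3.00 and 3.47 TMM-scaled CPM in the F1, against 0.0135, 0.145 and 0.139 in ECA722 and 0.921, 0.558 and 0.507 in the libraries labelled N2, and all but 1 of its allele-specific fragments in the F1 came from the N2 allele.

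**Figure D2:**
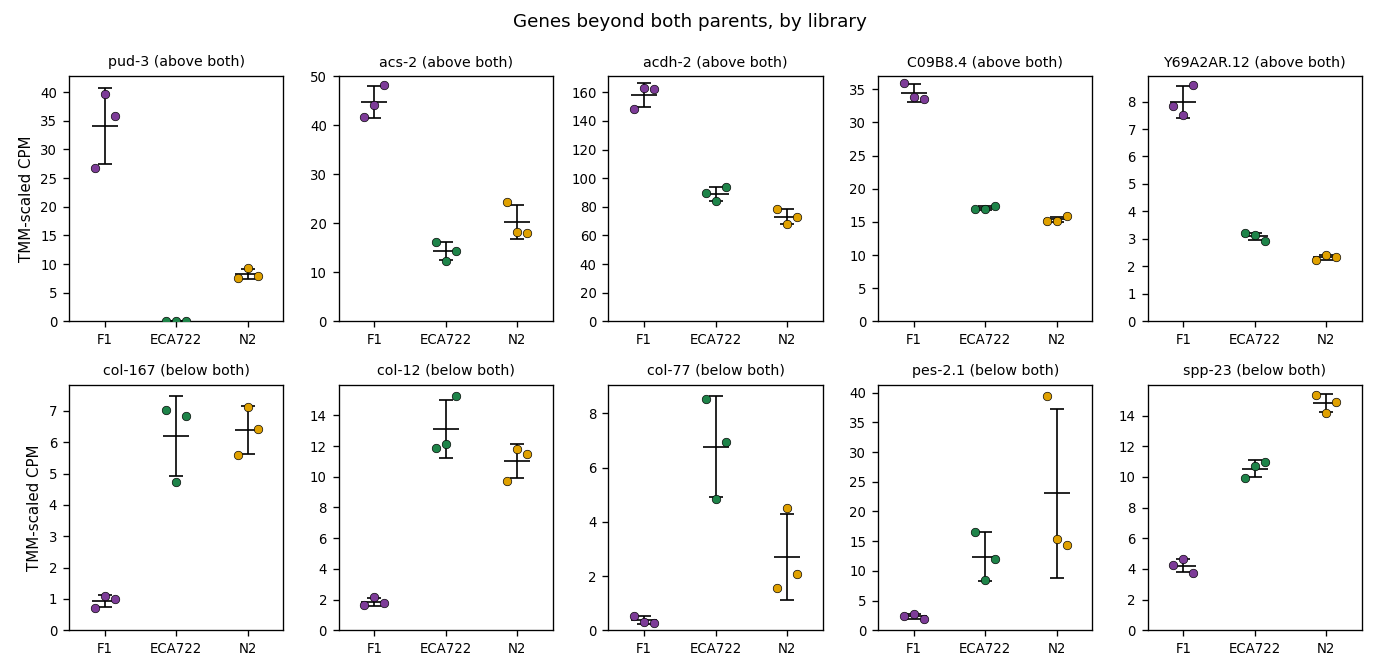
TMM-scaled CPM (y axis, from 0) of 5 genes above both parents (top) and 5 below both (bottom) in each library; points are the 3 libraries of F1, ECA722 and N2, and bars give the mean and SD. The F1 points lie outside both parental groups in all 10 panels, and pud-3 is at 0 in ECA722.

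Genes of the female germline were among those that rose against the mean of both parents (the mid-parent, taken on the log scale). In all, 5575 genes (33.9%) differed from the mid-parent, 3024 higher (18.4%) and 2551 lower (15.5%). The split depends on the scale: 54.2% of these calls were higher, but against the linear mean of both parents 3486 genes were called and 41.1% of them were higher. All 9 oocyte markers were higher and 4 of them lay above both parents, with a median log2 difference of 0.21 where that of all genes tested was 0.00. The oocyte regulator lin-41 had 744, 664 and 701 TMM-scaled CPM in the F1, against 546, 575 and 575 in ECA722 and 505, 501 and 471 in the libraries labelled N2, a difference of 0.32 ± 0.07 from ECA722 and 0.51 ± 0.07 from N2 (adjusted p 4.2e-04 and 2.8e-07). The yolk receptor gene rme-2 had 1555, 1373 and 1476 TMM-scaled CPM in the F1, against 1141, 1265 and 1213 in ECA722 and 1111, 1143 and 1133 in the libraries labelled N2, and the eggshell gene cbd-1 4256, 3758 and 3964 TMM-scaled CPM in the F1, against 3172, 3340 and 3280 in ECA722 and 3124, 2961 and 2867 in the libraries labelled N2. All 3 genes had every F1 library above every parental library, and the allele-specific fragments of lin-41 and cbd-1 were split evenly, with 15185 fragments of the ECA722 allele against 15466 of the N2 allele and 51456 fragments of the ECA722 allele against 49143 of the N2 allele. Of 21 cell cycle and replication licensing genes, 15 were higher and 0 lower than the mid-parent (median 0.14), and 6 lay above both. Their replicative helicase subunits included mcm-4, with 395, 366 and 372 TMM-scaled CPM in the F1, against 323, 337 and 336 in ECA722 and 310, 283 and 282 in the libraries labelled N2, and mcm-3, with 475, 440 and 460 TMM-scaled CPM in the F1, against 393, 421 and 407 in ECA722 and 364, 357 and 355 in the libraries labelled N2. Of 20 Argonautes, the proteins that bind small RNAs, 13 were higher and 0 lower (median 0.26), and 6 lay above both. Of 29 genes of the meiotic chromosome axis and synapsis, 10 were higher and 0 lower (median 0.10). Of 33 proteasome subunits, 16 were higher and 0 lower (median 0.07), and 8 lay above both, among them the base scaffold rpn-1 with 740, 684 and 719 TMM-scaled CPM in the F1, against 604, 635 and 628 in ECA722 and 536, 554 and 530 in the libraries labelled N2. All 6 vitellogenins, the yolk proteins, were higher than the mid-parent (median 0.29).

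Many of these calls of small differences depended on single libraries, F1 replicate 1 above all. Without it, as an alternative chosen after the data were seen, 4 of 9 oocyte markers, 7 of 21 cell cycle genes, 2 of 29 meiotic genes, 5 of 33 proteasome subunits and 4 of 6 vitellogenins were still called higher than the mid-parent. The counts were 13 of 20 for the Argonautes and 4 for oocyte markers above both. Calls against the mid-parent over all genes tested fell as well, from 5575 (54.2% higher) to 4014 (51.2% higher) without F1 replicate 1. They numbered 4358 without F1 replicate 3 and 4805 without N2 replicate 1. Proteasome subunits called numbered 7 without F1 replicate 3 and 8 without N2 replicate 1, and meiotic genes 6 and cell cycle genes 10 without N2 replicate 1. In bulk samples such as these, more cells of a type and more RNA per cell cannot be told apart.

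Sperm and male transcripts differed between libraries of the F1. The 10 male-specific markers (9 tested) summed to 1.18, 3.26 and 3.50 CPM in the F1, against 1.54 to 1.93 CPM in ECA722 and 1.00 to 1.86 CPM in N2. Replicates 2 and 3 of the F1 were above every parental library and replicate 1 was within their range. Only cwp-1, expressed in male sensory neurons, was called above both parents, and its call against N2 was lost without F1 replicate 2 or 3 or N2 replicate 1 or 3 (adjusted p 0.0969 to 0.161). Without F1 replicate 1, 4 of the 9 were called higher than the mid-parent. Major sperm protein genes (30 tested), a family of near-identical copies among which reads can be split, summed to 25.3, 213 and 184 CPM in the F1, against 67.2 to 95.1 CPM in ECA722 and 169 to 219 CPM in N2. The first F1 library was below every parental library, and the other F1 libraries were near N2. Of all 60 sperm markers tested, 17 were higher and 0 lower than the mid-parent, 13 were N2-like, and without F1 replicate 1 the count higher was 30. It was 9 without F1 replicate 2 and 10 without F1 replicate 3. With allele-aware totals 13 sperm markers were higher, and 7 major sperm protein genes were, beside 12 with the main totals. Of all genes tested, 18.4% were higher and 15.5% lower than the mid-parent, and 13.6% were N2-like.

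At 2-fold or more, 101 genes (0.614%) lay above both parents and 174 (1.06%) below both. The 101 genes above were mostly scarce: their median level was 0.308, 1.52 and 1.45 CPM in the F1, against 0.243, 0.247 and 0.0277 CPM in ECA722 and 0.200, 0.364 and 0.130 CPM in N2. F1 replicate 1 was the lowest F1 library in 93 of the 101 (92.1%), and 9 reached a group mean of 5 CPM. Without F1 replicate 1, 295 genes lay above both by 2-fold, including 99 of the 101. Without F1 replicate 2 there were 27, without F1 replicate 3 38, without ECA722 replicate 3 63, without N2 replicate 1 63 and without N2 replicate 3 44, and fitting only the 9 libraries gave 28. The share of the male and sperm transcripts above in this count was not tested. The 174 genes below both had a median of 0.241, 0.325 and 0.242 CPM in the F1, against 1.94, 1.13 and 1.59 CPM in ECA722 and 1.23, 1.14 and 0.864 CPM in N2. Fold minimums left 13562 genes (82.5%) with no call and 1134 (6.9%) with another pattern. The count below both stayed between 131 and 198 when single libraries were left out.

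Many collagens of the cuticle lay below both parents. Of 125 col genes tested, 47 lay below both and 1 above both, 70 were lower than ECA722 and 66 lower than N2. Over all genes tested, 6.12% lay below both, 5.4% above both, 19.9% were lower than ECA722 and 17.4% lower than N2. The median log2 difference of the col genes was -1.16 from ECA722, -0.61 from N2 and -0.71 from the mid-parent. Of them, 69 were lower than the mid-parent and 9 higher, where 15.5% and 18.4% of all genes were. The counts without F1 replicate 1 were 40 below both and 60 lower than the mid-parent. The gene col-12 (chromosome V, 10423898 to 10425198) had 1.65, 2.17 and 1.75 TMM-scaled CPM in the F1, against 11.8, 12.2 and 15.3 in ECA722 and 9.75, 11.8 and 11.4 in the libraries labelled N2. The log2 difference was -2.81 ± 0.23 from ECA722 and -2.56 ± 0.23 from N2 (adjusted p 1.3e-12 and 2.8e-11). For col-167 (chromosome X, 6323488 to 6324393) the levels were 0.722, 1.09 and 0.996 CPM in the F1, 7.04, 4.72 and 6.85 in ECA722 and 5.61, 7.13 and 6.42 in N2, with the F1 at -2.73 ± 0.34 from ECA722 and -2.78 ± 0.34 from N2. In col-77 (chromosome II, 8358228 to 8359381), at 0.535, 0.325 and 0.269 CPM in the F1, 8.53, 4.83 and 6.96 in ECA722 and 1.56, 4.52 and 2.06 in N2, the parental libraries varied more among themselves but none reached down to the F1. The gene col-161 was near 0 in the F1, with 0, 0.0375 and 0.0269 CPM in the F1, 2.96, 1.77 and 2.54 in ECA722 and 0.821, 3.20 and 2.04 in N2. The summed level of the col genes was 25270 to 29140 CPM in the F1, 24040 to 27430 in ECA722 and 30090 to 35580 in N2, and the F1 and ECA722 ranges overlapped.

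The 19 collagens named for body shape mutants (dpy, rol, sqt and bli) split the parents: 13 were higher in ECA722 than in N2 (median log2 1.67), and the F1 was lower than ECA722 in 11, higher in 0, with a median of -1.80. Against N2 the F1 was lower in 4 and higher in 0 (median -0.51), and 8 of the 19 were N2-like. Of all genes tested, 22.3% were higher in ECA722 than in N2 and 13.6% were N2-like. The F1 was lower than ECA722 in 19.9% of all genes and lower than N2 in 17.4%. The collagen gene dpy-5 (chromosome I, 5432197 to 5433051) lay below both, at 0.0267, 0.0250 and 0.0269 CPM in the F1, 3.96, 3.88 and 4.28 in ECA722 and 1.58, 1.72 and 0.540 in N2. The gene dpy-4, which overlaps atln-2, had 0.334, 0.262 and 0.135 CPM in the F1, 5.25, 5.36 and 5.28 in ECA722 and 1.16, 2.31 and 0.875 in N2. Of 39 hedgehog-related genes, secreted proteins of the epidermis, 8 were lower than the mid-parent and 2 higher (median -0.46). Over all genes tested, 15.5% were lower and 18.4% higher. The 6 larval moult markers summed to 37.0 to 40.6 CPM in the F1, 50.8 to 61.1 CPM in ECA722 and 43.6 to 60.0 CPM in N2. Of these, 3 were lower than the mid-parent, and the count was 1 without any 1 of the F1 libraries or without N2 replicate 1. The part of stage in the collagen result was not tested.

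Of the 7 intestine markers, 3 were lower and 2 higher than the mid-parent and 2 lay below both, while their summed level, given above, was higher in every F1 library than in ECA722 and overlapped N2 replicate 1. That sum includes the yolk genes vit-2 and vit-6, and vit-2 alone gave 20970 to 23020 CPM of it in the F1. Against ECA722, 5 of the 7 were lower and 1 higher, where 19.9% and 17.7% of all genes were. Against N2, 2 were lower and 2 higher. Without F1 replicate 1, 3 were lower and 0 higher than the mid-parent. The GATA factor gene elt-2 had 8.52, 7.92 and 7.83 TMM-scaled CPM in the F1, against 13.6, 13.5 and 12.6 in ECA722 and 9.95, 9.80 and 10.1 in the libraries labelled N2, and the microvillar actin gene act-5 had 301, 282 and 297 TMM-scaled CPM in the F1, against 410, 430 and 403 in ECA722 and 367, 335 and 326 in the libraries labelled N2. For both genes every F1 library was below every parental one. The yolk gene vit-2 of the same list was called above both, at 23020, 20970 and 21900 CPM in the F1, 19160, 18620 and 18060 in ECA722 and 22140, 17600 and 16470 in N2, although N2 replicate 1 overlapped the F1. Its calls were lost without F1 replicate 1 (adjusted p 0.0674 against ECA722 and 0.097 against N2), and that against N2 also without N2 replicate 2 or 3 (0.0743 and 0.148). Both were lost with only the 9 libraries (0.0811 and 0.123), and that against ECA722 with allele-aware totals (0.177). Over all genes tested, 15.5% were lower and 18.4% higher than the mid-parent, and 6.12% lay below both. Of 57 transthyretin-like genes, 26 were lower and 1 higher than the mid-parent (median -0.33), and 13 lay below both. The member ttr-34 had 4.60, 4.79 and 5.36 TMM-scaled CPM in the F1, against 7.32, 7.25 and 9.18 in ECA722 and 10.8, 10.3 and 10.6 in the libraries labelled N2. Of 39 glutathione S-transferases, 15 were lower and 3 higher (median -0.26). Of 207 nuclear hormone receptors, 50 were lower and 11 higher (median -0.17), and 15 lay below both (7.2%, near the share of all genes). Of 66 UDP-glucuronosyltransferases 21 were lower and 6 higher. Without F1 replicate 1 the counts lower were 16 transthyretin-like genes, 11 transferases, 31 receptors and 14 UDP-glucuronosyltransferases. Of 48 lysozymes, saposins and antimicrobial peptides, 15 were lower and 3 higher, and 10 lay below both. The saposin-like gene spp-23 (chromosome I, 1018843 to 1019157) had 4.24, 4.62 and 3.77 TMM-scaled CPM in the F1, against 9.93, 10.7 and 11.0 in ECA722 and 15.4, 14.2 and 14.9 in the libraries labelled N2, a difference of -1.31 ± 0.09 from ECA722 and -1.80 ± 0.09 from N2 (adjusted p 7.1e-15 and 1.4e-18).

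The 7 fatty acid desaturases were spread over the modes. The delta-12 desaturase gene fat-2 lay below both, with 332, 337 and 339 TMM-scaled CPM in the F1, against 394, 417 and 403 in ECA722 and 392.2, 418 and 409 in the libraries labelled N2. So did the delta-9 desaturase gene fat-6, with 200, 188 and 199 TMM-scaled CPM in the F1, against 315, 311 and 306 in ECA722 and 244, 260 and 250 in the libraries labelled N2. The other delta-9 enzymes were parent-like: fat-7 was N2-like at 58.8, 52.1 and 57.7 CPM in the F1, 25.2, 25.8 and 24.6 in ECA722 and 54.5, 53.2 and 53.7 in N2, and fat-5 was ECA722-like at 18.8, 21.5 and 20.4 CPM in the F1, 21.1, 19.4 and 21.0 in ECA722 and 32.7, 28.9 and 28.8 in N2. The genes fat-6 and fat-7 are close paralogues, whose reads could be split between them. Within the F1 fat-7 had 423 fragments of the ECA722 allele against 7636 of the N2 allele. Of 9 early embryo markers tested, 3 were lower than the mid-parent and 0 higher, 2 lay below both, and the summed level was 8.67 to 10.4 CPM in the F1, 11.4 to 16.2 CPM in ECA722 and 14.3 to 28.4 CPM in N2. Without F1 replicate 1 the count was 1. The GATA factor gene elt-1, which specifies epidermis, was at 6.02, 5.54 and 5.22 CPM in the F1, 9.12, 6.91 and 8.17 in ECA722 and 12.7, 8.32 and 8.36 in N2, and its call against ECA722 was lost without ECA722 replicate 1 (adjusted p 0.0863). Also below both was pes-2.1 (chromosome I, 11358078 to 11359305), at 2.33, 2.76 and 1.99 CPM in the F1, 16.6, 8.42 and 12.0 in ECA722 and 39.4, 15.3 and 14.4 in N2, where all 56 allele-specific fragments of the F1 came from ECA722. Its log2 difference from N2 was -3.25 ± 0.44 with these totals and -1.12 with allele-aware totals (adjusted p 0.032), and that from ECA722 was -2.37 ± 0.44 and -1.33 (adjusted p 0.01), so its size depends on the quantification. The bZIP factor gene zip-8 had 0.977, 1.46 and 1.34 CPM in the F1, 7.15, 3.04 and 4.89 in ECA722 and 10.3, 5.15 and 3.90 in N2.

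**Figure D3:**
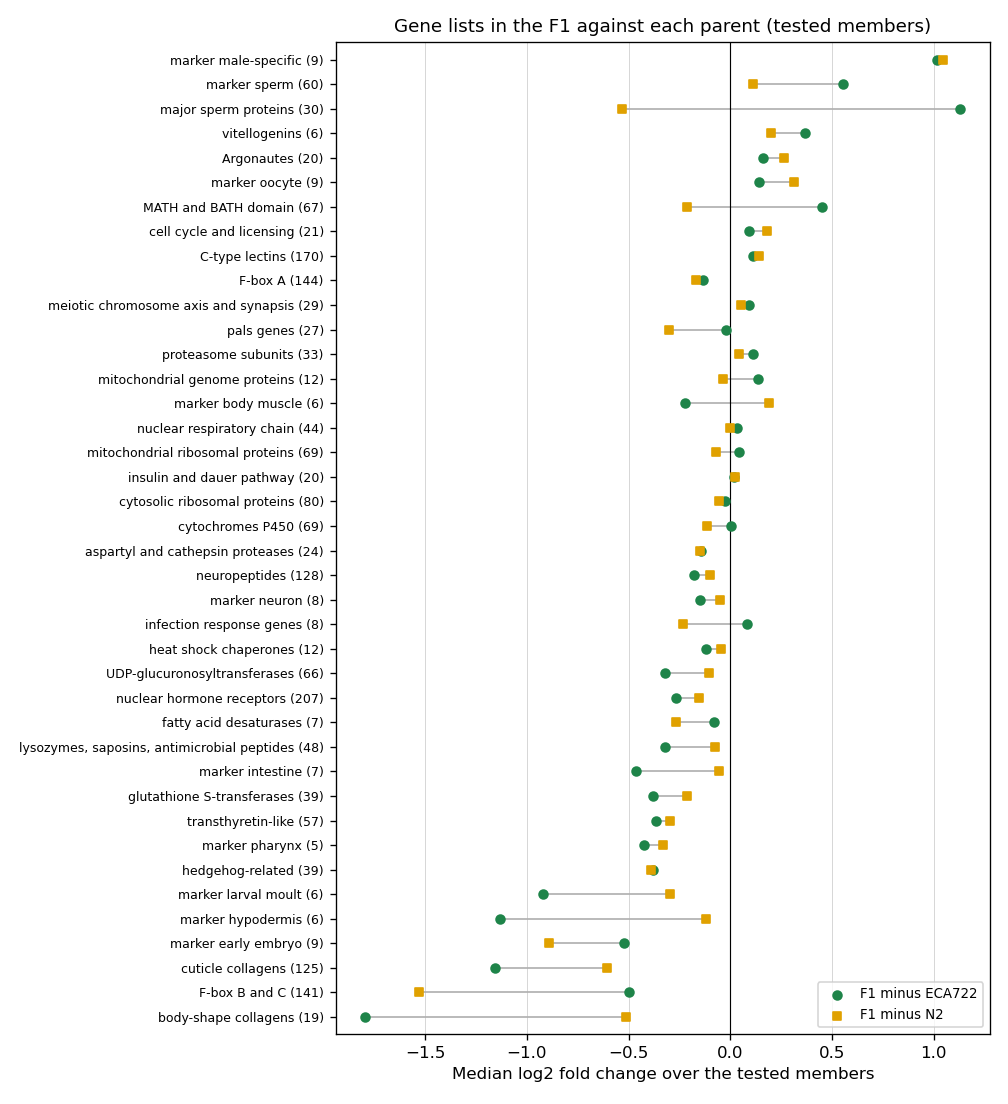
Median log2 fold change (x axis) of the F1 against ECA722 (circles) and against N2 (squares) over the tested members of 40 gene lists, whose number stands in brackets; lists are ordered by their median against the mid-parent, highest at the top. Body-shape and cuticle collagens are farthest below 0 against ECA722 and F-box B and C genes against N2, while the oocyte, Argonaute and cell cycle lists lie above 0 against both parents.

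In N2-like genes the F1 followed N2 away from ECA722. The gene tbb-6 (chromosome V, 12261531 to 12263368), a beta tubulin gene, had 1.86, 2.22 and 1.99 TMM-scaled CPM in the F1, against 77.8, 68.1 and 83.2 in ECA722 and 2.02, 1.503 and 1.72 in the libraries labelled N2. The F1 and N2 libraries overlapped and both were far below ECA722, with a log2 difference of -5.23 ± 0.16 for the F1 (adjusted p 2.2e-25), while the F1 differed from N2 by 0.24 ± 0.17 (adjusted p 0.3). The collagen gene col-39, which overlaps dph-2, had 7.14, 8.92 and 7.13 TMM-scaled CPM in the F1, against 68.0, 62.3 and 73.9 in ECA722 and 5.91, 6.15 and 6.96 in the libraries labelled N2. The thioredoxin domain gene txdc-12.1 had 12.6, 16.1 and 15.4 TMM-scaled CPM in the F1, against 78.1, 72.1 and 79.6 in ECA722 and 14.1, 13.8 and 12.4 in the libraries labelled N2. For both genes the F1 was near N2, at 0.29 ± 0.14 and 0.13 ± 0.12 on the log2 scale (adjusted p 0.098 and 0.44). In the other direction, the F-box gene fbxb-7 had 7.00, 5.93 and 6.65 TMM-scaled CPM in the F1, against 0.0135, 0.0145 and 0.0277 in ECA722 and 7.07, 6.96 and 7.62 in the libraries labelled N2, and all 355 of its allele-specific fragments in the F1 were of the N2 allele. The sperm gene msp-31, which overlaps aagr-2, had 0.883, 6.82 and 5.73 TMM-scaled CPM in the F1, against 0, 0.0436 and 0.0277 in ECA722 and 8.41, 10.2 and 7.83 in the libraries labelled N2, with F1 replicate 1 far below the other F1 libraries. Its log2 difference from ECA722 was 7.46 ± 0.85, and 4.49 with allele-aware totals. At 2-fold or more, 740 genes (4.5%) were N2-like.

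In ECA722-like genes, 442 (2.69%) at 2-fold or more, the F1 followed its wild father. The lectin gene clec-3 (chromosome II, 3017468 to 3019907), which overlaps C41H7.2, had 8.64, 10.5 and 8.74 TMM-scaled CPM in the F1, against 7.01, 7.25 and 7.16 in ECA722 and 0.381, 0.273 and 0.216 in the libraries labelled N2, and 1483 fragments of the ECA722 allele against 52 of the N2 allele. The lectin gene clec-4 had 6.05, 5.01 and 5.597 TMM-scaled CPM in the F1, against 5.55, 6.60 and 6.00 in ECA722 and 1.12, 1.14 and 0.993 in the libraries labelled N2. Both were far above N2, by 5.04 ± 0.24 and 2.36 ± 0.19 (adjusted p 1.0e-18 and 2.0e-12), and the F1 did not differ from ECA722 beyond its spread, at 0.38 ± 0.19 and -0.12 ± 0.17 (adjusted p 0.11 and 0.6). The collagen gene bli-6 was lower in the F1 than in N2, with 3.34, 4.55 and 4.09 TMM-scaled CPM in the F1, against 5.44, 4.54 and 5.85 in ECA722 and 9.85, 10.7 and 9.56 in the libraries labelled N2. The arrestin domain gene arrd-1 had 0.843, 1.06 and 0.915 CPM in the F1, 1.99, 0.930 and 1.43 in ECA722 and 9.41, 4.35 and 3.28 in N2, and the zygotic gene sdz-28 had 1.43, 1.25 and 0.969 CPM in the F1, 0.946, 0.291 and 0.527 in ECA722 and 12.5, 5.29 and 4.84 in N2. The small peptide gene nspd-8 was at 0 in N2 and at 0.910, 6.41 and 5.27 CPM in the F1 and 6.28, 5.38 and 4.48 in ECA722, at least 311-fold higher in the F1 than in N2, and F1 replicate 1 was its lowest F1 library. The uncharacterised gene F56A4.3 (chromosome V, 2453414 to 2456147) was at 0 in the F1 and in ECA722 and at 14.5, 13.3 and 13.8 CPM in N2, at least 882-fold lower in the F1. DESeq2 did not call its difference from N2. Its mean was also 0 in the 6 other F1 groups, so its mode cannot be read as following ECA722 in particular.

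Intermediate genes included both parts of a selfish element. The gene sup-35 (chromosome III, 11115754 to 11119226) encodes a maternal toxin of embryos and pha-1 (chromosome III, 11131775 to 11136688) its antidote. The toxin gene had 28.2, 27.5 and 28.2 TMM-scaled CPM in the F1, against 0 in every library in ECA722 and 49.4, 52.9 and 50.3 in the libraries labelled N2. The F1 was at least 1999-fold above ECA722 and differed from N2 by a log2 of -0.86 ± 0.06 (adjusted p 5.5e-14). The antidote gene had 24.3, 23.1 and 25.3 TMM-scaled CPM in the F1, against 32.4, 35.4 and 33.5 in ECA722 and 10.8, 9.70 and 10.7 in the libraries labelled N2, the opposite order of the parents, with the F1 at -0.48 ± 0.07 from ECA722 and 1.22 ± 0.08 from N2 (adjusted p 1.8e-06 and 1.3e-15). The F1 held 3639 fragments of the ECA722 allele against 961 of the N2 allele for pha-1. In the second such pair, zeel-1 had 0.107, 0.262 and 0.0807 CPM in the F1, 0 in every library in ECA722 and 3.71, 1.63 and 1.71 in N2 and was intermediate, and peel-1 had 0.120, 0.325 and 0.404 CPM in the F1, 0 in every library in ECA722 and 0.160, 0.319 and 0.227 in N2 and was N2-like.

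The secondary Argonautes sago-1 and sago-2 were intermediate in opposite directions. The gene sago-1 (chromosome V, 6303771 to 6308337) had 23.1, 23.0 and 21.0 TMM-scaled CPM in the F1, against 6.21, 5.44 and 5.96 in ECA722 and 45.9, 39.8 and 42.1 in the libraries labelled N2, and sago-2 (chromosome I, 618160 to 621490) had 41.7, 41.7 and 40.8 TMM-scaled CPM in the F1, against 46.9, 48.8 and 48.0 in ECA722 and 10.2, 10.3 and 8.79 in the libraries labelled N2. The F1 differed by -0.21 ± 0.06 from ECA722 and 2.09 ± 0.06 from N2 for sago-2, and by 1.93 ± 0.06 and -0.92 ± 0.05 for sago-1. With allele-aware totals the difference of sago-2 from N2 was 1.30. The F1 held 68 fragments of the ECA722 allele against 723 of the N2 allele for sago-1. The cytosolic catalase gene ctl-1 (chromosome II, 14303568 to 14306260) had 11.1, 10.1 and 13.4 TMM-scaled CPM in the F1, against 0 in every library in ECA722 and 27.9, 26.2 and 24.4 in the libraries labelled N2, and the BTB and MATH domain gene bath-5 had 15.2, 13.1 and 13.6 CPM in the F1, 0 in every library in ECA722 and 24.3, 28.8 and 29.2 in N2. The uncharacterised gene C49G7.13 had 42.2, 46.4 and 45.0 TMM-scaled CPM in the F1, against 109, 116 and 112 in ECA722 and 0.0601, 0 and 0.0108 in the libraries labelled N2, with 3071 fragments of the ECA722 allele against 3 of the N2 allele in the F1. The infection response genes irg-6 and irg-8 were intermediate too, irg-6 at 1.19, 1.67 and 1.61 CPM in the F1, 3.05, 3.34 and 3.15 in ECA722 and 0 in every library in N2 and irg-8 at 81.6, 87.9 and 89.4 CPM in the F1, 40.5, 41.7 and 39.9 in ECA722 and 143, 134 and 125 in N2. The genes cld-1, mltn-2 and col-40, higher in ECA722, were intermediate by the rule, but single libraries decided 1 of their calls: mltn-2 against ECA722 was lost without F1 replicate 2 or ECA722 replicate 2 or 3 (adjusted p 0.0594 to 0.0673), col-40 against ECA722 without F1 replicate 1 or 3 or ECA722 replicate 1 or 3 (0.066 to 0.106), and cld-1 against N2 without F1 replicate 1 or 3 or N2 replicate 1 or 2 (0.0575 to 0.11).

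**Figure D4:**
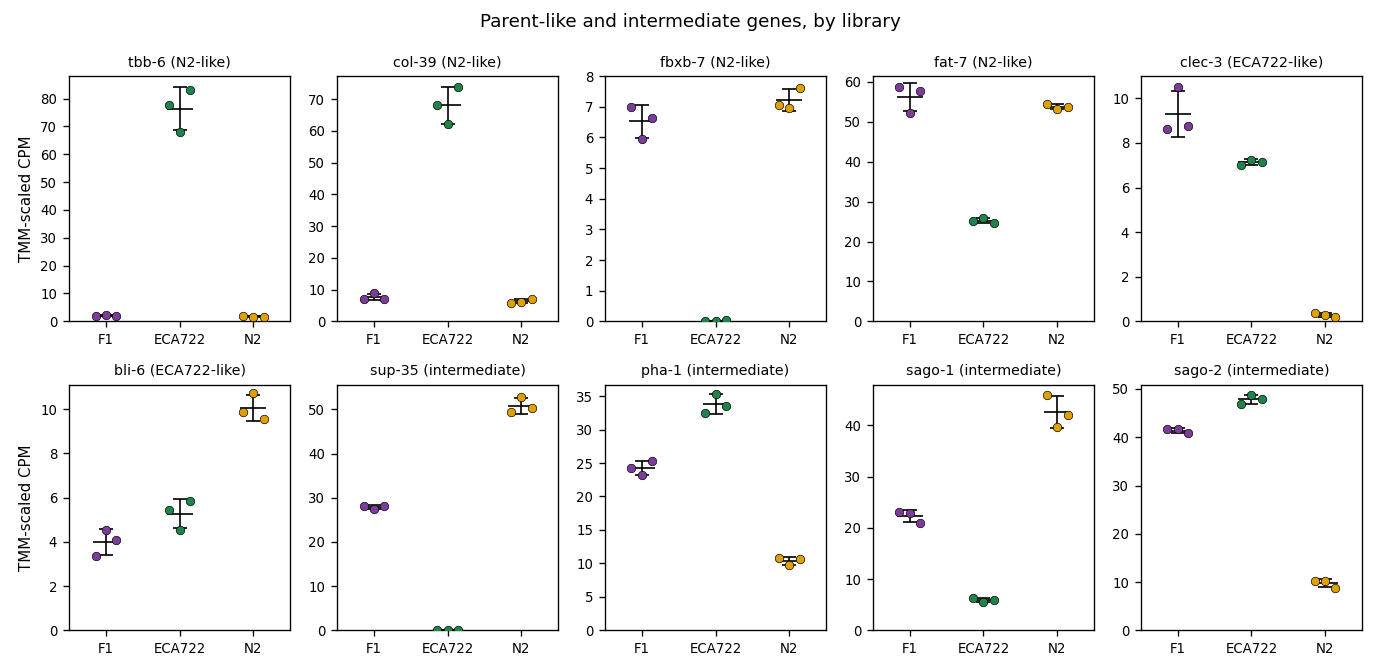
TMM-scaled CPM (y axis, from 0) of 4 N2-like, 2 ECA722-like and 4 intermediate genes in each library; points are the 3 libraries of F1, ECA722 and N2, and bars give the mean and SD. The F1 points of tbb-6, col-39, fbxb-7 and fat-7 sit with N2, while in sup-35, pha-1, sago-1 and sago-2 they lie between the parents.

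F-box and MATH domain proteins include substrate receptors of ubiquitin ligases, and their families are described beside the shares of all genes tested, 6.97% intermediate, 13.6% N2-like and 12% ECA722-like. In the same set 5.4% lay above both, 6.12% below both, and 18.4% were higher and 15.5% lower than the mid-parent. The F1 was higher than N2 in 18.2% and lower in 17.4%, and higher than ECA722 in 17.7% and lower in 19.9%. ECA722 was above N2 in 22.3% and below in 19.1%. Of 141 F-box B and C genes, 78 were lower than N2 in the F1 and 2 higher (median -1.53), and 28 were ECA722-like, 22 intermediate and 12 below both. Against ECA722, 28 were higher and 25 lower. Of 67 MATH and BATH domain genes, 27 were intermediate and 15 N2-like. ECA722 was below N2 in 36 of them and above in 13, with a median of -0.92, or -0.64 with the 19 genes at 0 counts in a group put at their bound. The F1 was above ECA722 in 32 and below in 13. Of 144 F-box A genes, 37 were intermediate, 32 N2-like and 14 ECA722-like, and 35 were higher and 12 lower than the mid-parent. Without F1 replicate 1 the F-box B and C genes lower than the mid-parent numbered 25, against 40 with it, and without F1 replicate 3 the calls in either direction fell to 32 from 52. C-type lectins, proteins with a sugar-binding fold, are a separate family. Of 170 tested, 15 lay above both (8.8%) and 9 below both (5.3%, near the share of all genes). Another 19 were intermediate, 32 N2-like and 16 ECA722-like. Against the mid-parent 53 were higher and 31 lower, and without F1 replicate 2 the calls in either direction numbered 55.

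The place of the F1 between its parents was read for genes with a parental difference of 2-fold or more, on a scale from 0 at N2 to 1 at ECA722. For the 1053 genes higher in ECA722, the median place was 0.50 on the log scale and 0.31 on the linear scale, and 80.2% lay between the parents. For the 1063 genes lower in ECA722, the median place was 0.29 on the log scale and 0.57 on the linear scale, and 83.7% lay between. In 74 genes with 0 counts in ECA722 and at least 1 CPM in N2, the F1 had a median of 0.43 of the N2 level. With 14 genes at 0 counts in N2, the F1 had a median of 0.38 of the ECA722 level. Allele-aware totals gave 0.49 and 0.29 on the log scale for the genes higher and lower in ECA722.

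Allele-specific fragments, a readout the modes do not use, were available at a mean of 10 or more fragments per F1 library for 8996 genes, with a median N2 share of 49.7%. Intermediate genes showed the widest spread, with quartiles of 43.4% and 60.9%, against 46.7% and 52.8% over all 8996 genes. The parent with the higher level also gave the larger allele share in 80.9% of 351 intermediate genes higher in ECA722 and in 80.9% of 403 higher in N2. The same held for 64.9% of 783 N2-like genes higher in ECA722 and 72.7% of 649 higher in N2. For ECA722-like genes it held for 75.7% of 849 and 63.4% of 508. Among genes with no call it held for 58.5% of 1251 and 48.9% of 1315. The 12 protein-coding genes of the mitochondrial genome, which is inherited from the mother, gave 1 intermediate and 2 N2-like genes and none beyond both parents. The mitochondrial ND1 gene had 436, 477 and 489 CPM in the F1, with 619 fragments of the ECA722 allele against 48952 of the N2 allele.

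Modes were unevenly spread over the chromosomes. On the X, 2.26% of 2303 genes lay above both parents and 9.34% below both, where the autosomes had 3.98% (V) to 7.67% (I) above and 4.55% (III) to 6.54% (IV) below. Chromosomes V and II held the most intermediate genes, 8.73% and 8.09% of those tested, and I the fewest, 5.38%. The outer parts of the chromosomes, outside the middle 1 of 3 equal lengths, held 73.1% of the intermediate genes, 61.3% of those above both and 51.7% of those below both, against 59.9% of all genes tested. These shares are descriptions and were not tested.

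**Figure D5:**
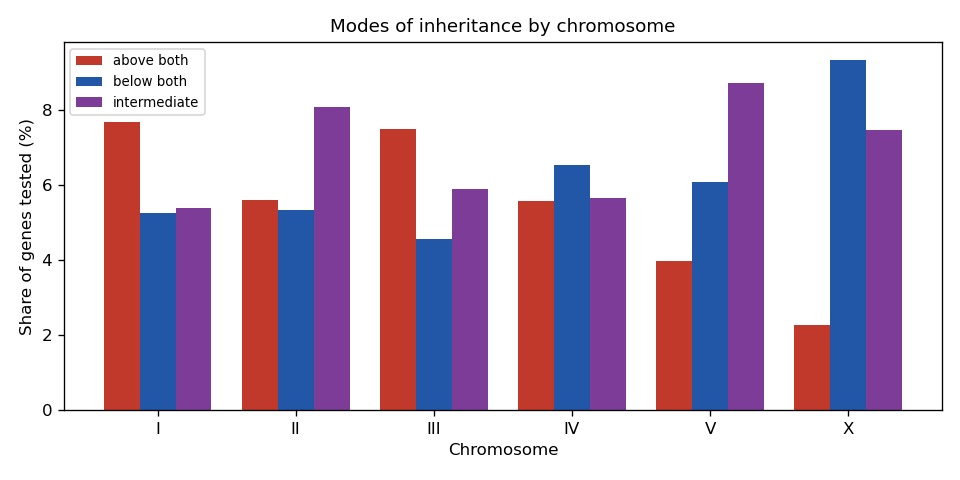
Share of the genes tested on each chromosome (y axis, percent, from 0) that lay above both parents, below both or between them with all 3 calls. The X has the lowest bar above both (2.26%) and the highest below both (9.34%), and V the highest intermediate bar (8.73%).

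The other lists are set beside the 33.9% of all genes tested that were called against the mid-parent. Of 80 cytosolic ribosomal protein genes, 12 were lower and 0 higher than the mid-parent with a median of -0.04. That count was 3 without F1 replicate 3 and 21 without F1 replicate 1, and lay between for the other libraries left out. Of 69 mitochondrial ribosomal protein genes, 2 were higher and 1 lower, and without N2 replicate 1 the calls numbered 11 and without ECA722 replicate 2 they numbered 5. Of 44 nuclear respiratory chain genes 7 were higher and 3 lower, and the calls numbered 6 without F1 replicate 1 and 5 without F1 replicate 3. Neuropeptides (128 tested) had 4 higher and 8 lower, and 93 had no call in any comparison. The 8 neuron and 6 body muscle markers gave 0 calls against the mid-parent in edgeR. DESeq2 called 1 neuron marker, as did leaving out F1 replicate 2, ECA722 replicate 2 or N2 replicate 2, and the fit of only the 9 libraries called 2. The pharynx list gave 2 of 5 lower. Without N2 replicate 1, 3 muscle markers were called. Cytochromes P450 (69 tested) had 14 higher and 16 lower, aspartyl and cathepsin proteases (24) 4 higher and 9 lower with 7 below both (6.12% of all genes were), and genes of the insulin and dauer pathway (20) 7 higher and 5 lower. Heat shock chaperones (12 tested) had 6 higher and 4 lower, and 6 were ECA722-like. Of 27 pals genes 6 were higher and 1 lower, with 6 intermediate, and of 8 irg genes 2 were higher and 1 lower. Of 6 hypodermis markers 1 was higher and 3 were lower.

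The departure of the F1 from the mid-parent was tested against the mean departure of the other 6 crosses, a contrast from which the N2 libraries cancel. It was called for 765 genes (4.65%), 294 with the ECA722 cross higher (1.79%) and 471 lower (2.86%). Intermediate genes had 119 higher and 93 lower (18.5% of them), those below both 0 higher and 121 lower (12%), and those above both 27 higher and 8 lower (3.94%). This split by mode is no independent result, since the modes were read from the same ECA722 F1 and ECA722 libraries. Genes picked as low in the F1 lean to lower in this contrast, and genes picked as high lean to higher. Of the 125 col genes, 7 were higher and 13 lower in this contrast. The departure of acs-2 exceeded that of the other crosses by 1.00 ± 0.11 (adjusted p 9.6e-09) and that of acdh-2 by 0.91 ± 0.07 (adjusted p 2.5e-12). The collagen gene col-12 departed further down, at -1.32 ± 0.21 (adjusted p 1.8e-05), with mean levels of 3.64 to 9.95 in the other F1 groups and 8.56 to 27.8 in the other wild parents. The N2-like level of tbb-6 departed by -2.61 ± 0.15 (adjusted p 1.2e-16), with 0.887 to 23.3 in the other F1 groups and 1.18 to 45.6 in the other wild parents. None of the 9 oocyte markers was called in this contrast. The contrast could not be read for pud-3 and pud-4, since ECA722 and most other wild parents were at 0 counts.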

How the data were processed

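Polyadenylated RNA of whole animals was sequenced with a strand-specific kit, per the labels' protocols. The authors deposited kallisto estimated counts, TPM and transcript lengths in bases for each library (kallisto without a version, Trimmomatic 0.39 and build ce11, per the submitters' processing notes). The deposited TPM were not used. The F1 files carry ECA722 transcript lengths: 0 transcripts differ from the ECA722 files and 1108 from the N2 files, so reads of the N2 allele may be lost. Expected counts per gene, also deposited by the authors, came from salmon (1.4, per the same notes) and emase-zero, which see both alleles, and deposited salmon equivalence classes were the files from which fragments of 1 gene and 1 allele were counted. In these files the N2 libraries have QX1211 as second allele.

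Estimated counts were summed per gene (Ensembl WBcel235, the assembly of ce11; 138 transcripts matched by sequence name, 3 unmatched) and rounded. All 45 libraries in 15 groups entered 1 edgeR 4.0.16 quasi-likelihood fit (R 4.3.3; TMM, default count filter, 30 residual degrees of freedom, Benjamini-Hochberg at 0.05). CPM are TMM-scaled. A group at 0 is bounded with 3 counts over the group. Counting errors only are covered by such floors, since reads carry no molecular identifiers. The counting is not stated to use strand, so overlapping genes are named. The mid-parent was the mean of both log levels. Only the settings of the main fit were tested on simulated counts, not the alternatives or the modes.

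The genes, lists and tests were chosen with earlier results of these data known. The list of mitochondrial genes was taken by chromosome once the annotation showed no symbols for most. Lists are described by counts and medians, without a test. Their medians moved by at most 0.10 when genes at 0 were put at their bound, except for the MATH and BATH list, given both ways, and the toxin and antidote list, given without a median. Genes were named by a rule: the same mode with both kinds of totals, at least 5 CPM in 1 group, no overlap between the groups called, then the largest differences per mode, the same among genes with a gene class symbol, up to 3 genes per list and whole lists of up to 12. Alternatives were allele-aware totals, DESeq2 1.42.0, RLE size factors, no count filter, only the 9 libraries, a replicate block, a linear mid-parent, a 2-fold minimum and leaving out each library.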

Additional observations from a re-analysis of the deposited data

Results flagged for a closer look

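The departure from the mid-parent differed between the ECA722 cross and the mean of the other 6 crosses in 765 genes, by the test of the difference itself (edgeR, adjusted p under 0.05). Among genes named above both parents, the log2 difference between crosses was 1.00 for acs-2, 0.91 for acdh-2, 0.67 for C09B8.4, -0.62 for rnh-1.3 and -1.79 for Y69A2AR.12. Among those below both it was -1.01 for col-167, -1.32 for col-12 and -1.61 for col-62. N2-like genes gave 2.79 for fbxb-7, -0.51 for col-39, -0.96 for txdc-12.1 and -2.61 for tbb-6. ECA722-like genes gave 1.35 for clec-3 and 1.62 for Y71G12B.5. Intermediate genes gave 0.83 for C50E3.9, 1.03 for col-40 and 1.83 for mltn-2. All these genes were named from the same ECA722 F1 and ECA722 libraries that enter this test.

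In 8 further genes called for this difference, a group of the contrast had 0 counts, so levels are given in place of a fitted difference. The toxin gene sup-35 had a mean of 28.0 CPM in the ECA722 F1 and 0 in ECA722, with means of 27.1 to 80.8 in the other F1 groups and 0.465 to 85.5 in the other wild parents. Also at 0 in ECA722 were T06E6.10 (4.75 CPM in the F1; 4.36 to 8.73 in the other F1 groups and 0.795 to 7.89 in the other wild parents), clec-166 (4.48 CPM; 4.62 to 10.4 in the other F1 groups and 0.00891 to 13.1 in the other wild parents) and the sperm gene msp-79 (3.78 CPM; 3.97 to 10.4 in the other F1 groups and 1.35 to 21.8 in the other wild parents). In C25F9.5 the other wild parents were at 0, while the F1 had 5.47 CPM and ECA722 8.15, 9.11 and 8.80 CPM. Y69A2AR.25 had 5.25 CPM in the F1, with 3.37 to 4.76 in the other F1 groups and 0 to 0.780 in the other wild parents. The 2 gene identifiers annotated pud-2.2 (WBGene00017490 and its copy) had the same values, 243 CPM in the F1, with 38.6 to 193 in the other F1 groups and 0 to 236 in the other wild parents, so their reads cannot be told apart.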

How the results depend on the processing

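Counts of genes called in each contrast and mode stayed within 1.5 times of their value with allele-aware totals, DESeq2 and RLE size factors. Above both parents, no count filter gave 528 genes and fitting only the 9 libraries 526 (28 at 2-fold). Without a filter 10063 genes had no call, from the construction of that alternative. A linear mid-parent gave 3486 calls, 41.1% of them higher, beside 5575 with 54.2% higher on the log scale. A 2-fold minimum gave 101 genes above both, 174 below both, 291 intermediate, 740 N2-like, 442 ECA722-like, 13562 unchanged and 1134 ambiguous. The share above both among genes beyond both parents was 46.9%, and 52.6% with DESeq2, 34.9% with the 9 libraries and 33.9% without a filter. The cause of these shifts was not tested.

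Leaving out 1 library at a time, the counts ran from 4987 to 6157 for F1 minus ECA722, 4885 to 5858 for F1 minus N2, 5810 to 6814 for ECA722 minus N2, 4014 to 5644 for F1 minus mid-parent and 586 to 816 for the difference between crosses. Modes ran from 515 to 907 (above both), 772 to 991 (below both), 887 to 1178 (intermediate), 1792 to 2316 (N2-like), 1579 to 2003 (ECA722-like), 6846 to 7434 (unchanged) and 2880 to 3067 (ambiguous), and at 2-fold from 27 to 295 above and 131 to 198 below. None of 454 calls of named genes changed sign under the alternatives run for it, and 49 lost significance without F1 replicate 1, 20 with the 9 libraries and 8 with allele-aware totals. Of 41 lists, 13 moved by over 1.5 times in calls against the mid-parent without F1 replicate 1.

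RNA was extracted in 3 batches with 1 replicate of each strain, per the labels, which do not tie batches to replicate numbers. Deviations of same-numbered libraries correlated at r = 0.109 to 0.207 between ECA722 and N2, all 3 over 0.1, but at -0.0744 to 0.190 between F1 and N2 and -0.272 to 0.0553 between F1 and ECA722, so the numbers were not taken to pair the F1 with its parents. With the replicate block the counts were 6608, 6225 and 7124 for F1 against ECA722, F1 against N2 and ECA722 against N2, 5981 against the mid-parent, 1105 above and 1054 below both. At 37.2 M counts, F1 replicate 3 was the shallowest library, so that 1 CPM there stands for about 37.2 counts.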
